A study of Mus musculus with 12 samples.

Results

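Carboxylesterases and arylacetamide deacetylase are liver serine hydrolases, and 10 genes of this kind were followed here: Ces1b, Ces1c, Ces1d, Ces1e, Ces1f, Ces1g, Ces2a, Ces3a, Ces3b and Aadac. They were taken by symbol from 35498 genes, and all 10 were found, each with 1 row. Livers came from male C57BL/6N mice, 9 to 12 weeks old, sampled 3 h into the postprandial state that followed an overnight fast, and no mouse carried a labelled genetic change or drug treatment. From each of 6 mice, 1 library was made from the liver lysate freed of nuclei and 1 from wrappER-associated mitochondria (WAM), a fraction prepared out of that lysate in which mitochondria are recovered with the rough endoplasmic reticulum (ER) wrapped around them. The comparison asks how these mRNAs divide between the WAM fraction and the lysate it came from.

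Carboxylesterases are made on ribosomes of the rough ER, enter its lumen through a signal sequence, and split ester bonds of drugs and of neutral lipids. Many end in a retrieval signal of histidine, any residue, glutamate and leucine that returns them to the ER, whereas enzymes without it can leave the cell. Arylacetamide deacetylase is held in the ER membrane by an anchor at its start, with its active site facing the lumen. In hepatocytes some of these enzymes release fatty acids from stored triacylglycerol for the assembly of very low density lipoprotein.

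The 9 carboxylesterase genes lie on mouse chromosome 8 and Aadac on chromosome 3, in GENCODE M21 (GRCm38), a build that need not be the authors'. The Ces1 genes stand side by side on the minus strand, from Ces1b at chr8:93056728-93080017, through Ces1c at chr8:93099015-93131283, Ces1d at chr8:93166068-93197838, Ces1e at chr8:93201218-93229619 and Ces1f at chr8:93256236-93279747, to Ces1g at chr8:93302369-93337308. On the plus strand follow Ces2a at chr8:104734003-104741634, Ces3a at chr8:105048601-105058413 and Ces3b at chr8:105083753-105093929. Aadac lies on the plus strand at chr3:60025717-60040160. The coding sequences of the carboxylesterases run from 554 codons in Ces1c to 571 in Ces3a and Ces3b, and that of Aadac has 398.

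The coding ends are shown because they carry the ER retrieval signal where it is present. Each is the last 30 bases of the annotated coding sequence, stop codon included, and capitals mark codons of the retrieval signal where a search found it immediately before the stop codon.
Ces1b: gaccctactgagcacagagaacacaaatga
Ces1c: gaccctactgaacacacagaacacaaatga
Ces1d: ccatcccacagggaaCATGTTGAGCTCtga
Ces1e: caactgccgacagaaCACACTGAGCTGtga
Ces1f: caaccccagccatacCACAATGAGCTGtga
Ces1g: tcatcccatagggaaCATGTTGAACTGtga
Ces2a: ggttctcaggacaagCATGCAGAGCTGtag
Ces3a: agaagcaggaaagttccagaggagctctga
Ces3b: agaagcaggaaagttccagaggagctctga
Aadac: tacttgagttggcttatcaaaaatctgtaa

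The signal's codons were found in 5 of the 10 genes, Ces1d, Ces1e, Ces1f, Ces1g and Ces2a. Across all protein-coding genes with a complete coding sequence they were found in 34 of 21490, or 0.158%. Ces3a and Ces3b share the same last 30 bases, which keep the glutamate and leucine codons but have no histidine codon in the first place of the signal. Ces1b and Ces1c, the latter encoding the carboxylesterase of mouse plasma, have none of the histidine, glutamate and leucine codons in those places. Aadac has the leucine codon alone. Of 10 other carboxylesterase genes set beside the members, 6 held the signal's codons.

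The coding starts of 4 members are shown because they carry the stretch that brings a nascent protein to the ER. Each is the first 78 bases of the coding sequence, and capitals mark codons after the first with T in the middle position, which specify the hydrophobic residues phenylalanine, leucine, isoleucine, methionine and valine.
Ces1c: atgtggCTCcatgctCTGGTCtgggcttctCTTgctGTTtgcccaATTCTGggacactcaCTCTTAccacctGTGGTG
Ces1d: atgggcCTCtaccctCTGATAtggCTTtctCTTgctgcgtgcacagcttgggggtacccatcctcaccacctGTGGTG
Ces3b: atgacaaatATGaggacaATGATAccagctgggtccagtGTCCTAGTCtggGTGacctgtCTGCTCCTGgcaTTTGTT
Aadac: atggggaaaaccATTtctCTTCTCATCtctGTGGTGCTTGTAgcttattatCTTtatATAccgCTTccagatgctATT

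Over codons 2 to 26, the share with T in the middle ran from 28% in Ces1d to 48% in Ces3b and Aadac, with a median of 42% over the 10 members. The median over all 21490 genes was 28%, with a 10th percentile of 12% and a 90th percentile of 44%. In a list of 14 cytosolic esterases, thioesterases and lipases, which are made on free ribosomes, the median was 24% and the range 8% to 40%. In the list of 11 other hydrolases of the secretory pathway, the median was 44% and the range 8% to 48%. A denser stretch, with 9 or more such codons in any 12 of the first 40, was found in 0 of the 10 members and in 11.6% of all genes. These values describe the annotated sequence and were not tested.

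The close kinship of the genes bears on how reads were divided among them. Of all 31-base words in the annotated transcripts of Ces3a and Ces3b, 34.9% and 35.7% were shared between the pair. Ces2a shared 30.2% of its words with other genes, 24.7% with a pseudogene that had at most 5 estimated counts in any library, and Ces1b and Ces1c shared 23.9% and 23.3%. Ces1d, Ces1e, Ces1f and Ces1g shared between 3.36% and 8.09%, and Aadac 0.272%. The division of counts between Ces3a and Ces3b, and between Ces1b and Ces1c, is therefore an estimate and uncertain.

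Library totals ranged from 7400155 to 12023984 estimated counts in lysates and from 8344144 to 9712382 in WAM. The 13 mitochondrially encoded genes took 2.19% to 3.29% of lysate counts and 12.5% to 23.1% of WAM counts. In TPM, the transcript abundance scaled by length, they took 4.39% to 6.33% of lysates and 18.6% to 32.4% of WAM, which lowers the TPM of every other gene in WAM. The 10 hepatocyte markers made up 4.16% to 6.91% of lysate TPM and 3.00% to 6.42% of WAM TPM. Mouse 5 stood apart in its markers of immune cells: the 10 Kupffer cell markers made up 0.0639% of its lysate TPM, against at most 0.0263% in other lysates, and the 9 neutrophil markers 0.00656%, against at most 0.00120%. S100a8 at 26.7 TPM and S100a9 at 25.2 TPM made up most of that neutrophil sum, and 5 of the 9 were under 1 TPM in every library. The 10 sinusoidal endothelial markers were also highest in that lysate, at 0.0194% against at most 0.0149%.

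Per transcript length, the members spanned a wide range of levels in liver. Ces1c was the most abundant in lysates at 1161 ± 152 TPM (SD, n = 6), which placed it 95th among protein-coding genes, and Ces3a followed at 979.9 ± 130.0 TPM, at rank 113. Aadac reached 345.2 ± 58.3 TPM, at rank 320. Ces1b was the least abundant member at 35.4 ± 7.5 TPM, at rank 2329.

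Between these extremes lay 6 carboxylesterases. Ces1d had 210.9 ± 29.1 TPM in lysates, Ces1f 177.7 ± 48.7 TPM, Ces3b 159.8 ± 40.4 TPM and Ces2a 136.3 ± 25.01 TPM (SD, n = 6 each). Ces1e had 61.2 ± 16.9 TPM and Ces1g 58.6 ± 26.2 TPM. Of the 9 neighbouring pairs in this order, 3 had ranges over 6 lysates that did not overlap: Ces3a above Aadac, Aadac above Ces1d, and Ces2a above Ces1e. The ranges of the other neighbours overlapped. Within libraries, Ces1c was above Ces3a and Ces1d above Ces1f in 5 of 6 lysates, and the remaining pairs kept their order in 4 of 6.

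In WAM the order by mean TPM was the same apart from Ces1g, at 59.1 ± 31.5 TPM, which stood just above Ces1e, at 58.3 ± 20.02 TPM. The TPM ranges of this pair overlapped, and Ces1g was the higher in 3 of 6 WAM libraries. Only Ces3a above Aadac kept ranges that did not overlap between neighbours in WAM. Within libraries, Aadac above Ces1d, Ces1d above Ces1f, Ces2a above Ces1g and Ces1e above Ces1b also held in 6 of 6. The 10 genes together made up 0.333% ± 0.039 of lysate TPM and 0.310% ± 0.086 of WAM TPM (SD, n = 6 each), higher in WAM in 3 of 6 mice. Over a total that leaves out mitochondrially encoded genes, these shares were 0.352% ± 0.042 and 0.415% ± 0.090, higher in WAM in 5 of 6 mice.

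**Figure D1:**
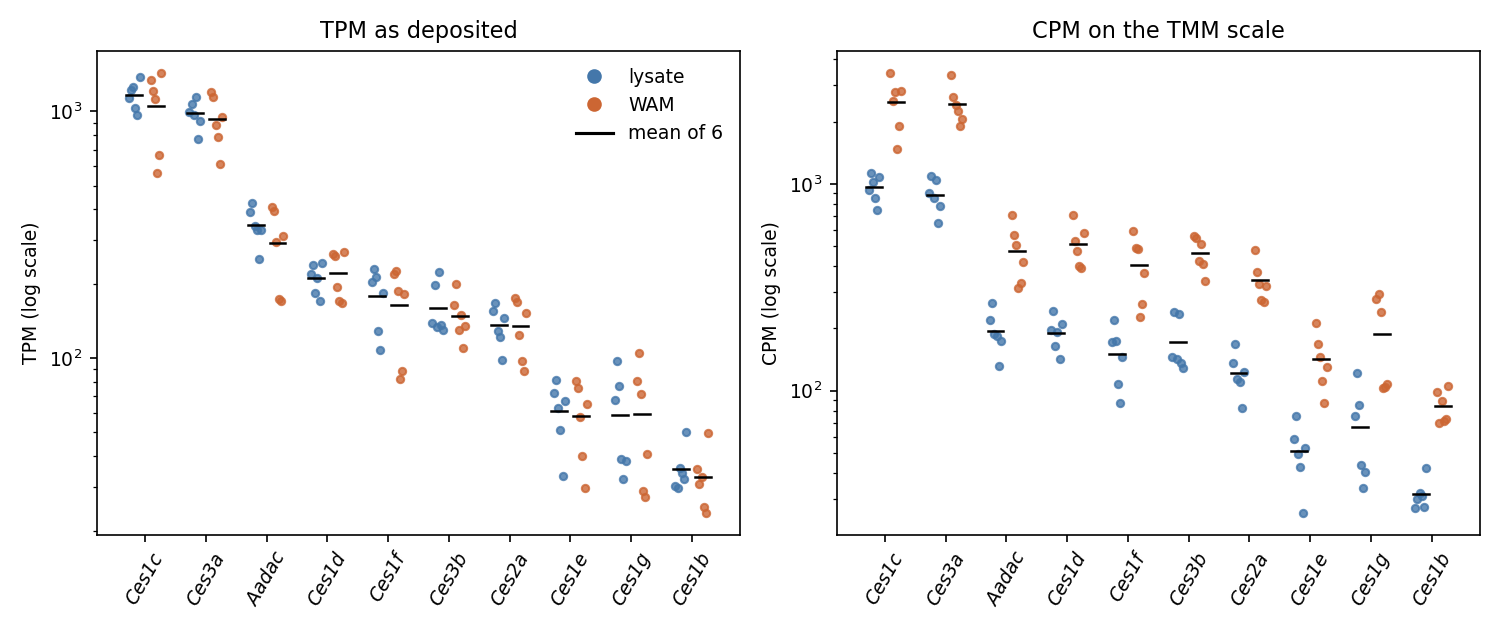
Levels of the 10 genes in every library, as deposited TPM (left) and as CPM on the TMM scale (right), both on log axes, with 1 point per library and a black line at the mean of 6. Lysate and WAM TPM overlap for every gene, whereas on the TMM scale the WAM points lie above the lysate points for every gene except Ces1g, whose groups overlap.

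As the plot of levels by library shows, the direction of the difference between fractions depends on how libraries are scaled. On the TPM scale, WAM means were between 0.849 times (Aadac) and 1.05 times (Ces1d) the lysate means, and 1 of the 10 genes, Ces1d, was higher in WAM in more than 3 mice. Levels are given from here on as CPM, counts scaled to a common library size, with TMM scaling, which centres libraries on the typical mRNA, so that a gene called higher rose relative to that mRNA. Among 11181 tested genes, edgeR's quasi-likelihood test with Benjamini-Hochberg adjustment called 3293 higher in WAM, 29.5%, and 3218 lower, 28.8%. All 10 members were called higher on this scale, each of them in 6 of 6 mice. Their median log2 fold change was 1.43, against -0.08 for all tested genes.

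Scaled to library totals, none of the 10 passed the test (edgeR, adjusted p from 0.0524 to 0.414, log2 fold changes from 0.19 to 0.41), while the median of all genes moved by -1.11. Scaled to library totals without the mitochondrially encoded genes, 8 of the 10 were called higher and the log2 fold changes were 0.42 to 0.63. On the authors' scale, where a coefficient of mitochondrial content divides WAM TPM, all 10 members were called lower (limma, log2 differences from -2.52 to -2.16), as were 11117 of the 11181 genes.

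Among the lipid-mobilising and retained carboxylesterases, Ces1d, a triacylglycerol hydrolase of the ER that supplies lipid for very low density lipoprotein, rose in all 6 mice. Its lysate CPM had a lowest value of 142.4, a median of 194.2 and a highest value of 242.1, and its WAM CPM 391.0, 501.8 and 708.0. The groups did not overlap, and the log2 fold change was 1.43 (SE 0.16, edgeR adjusted p = 5.15e-06).

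Ces1g, an ER carboxylesterase whose loss in mice disturbs liver and plasma lipids, was the most variable member. Its lysate CPM was 33.8 at the lowest, 59.4 at the median and 121.5 at the highest, and its WAM CPM 102.7, 174.4 and 294.1. The groups overlapped across mice, because the highest lysate, that of mouse 2, lay above the WAM libraries of mice 4, 5 and 6. Within each mouse WAM was higher, in 6 of 6, and the log2 fold change was 1.50 (SE 0.37, edgeR adjusted p = 0.0034), which was the highest estimate of the 10 and the one with the largest error.

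Ces1f, an ER carboxylesterase active on acylglycerols, and Ces1e, known as egasyn, which holds beta-glucuronidase in the ER, both rose. Ces1f had lysate CPM of 87.0, 158.0 and 219.1 at the lowest, median and highest, WAM CPM of 227.9, 427.2 and 589.2, and a log2 fold change of 1.43 (SE 0.26, edgeR adjusted p = 0.00035). Ces1e had lysate CPM of 25.6, 51.1 and 75.8, WAM CPM of 87.1, 138.1 and 211.8, and a log2 fold change of 1.49 (SE 0.24, edgeR adjusted p = 0.000142). Neither gene's groups overlapped. Gusb, which encodes the beta-glucuronidase that egasyn binds, had a log2 fold change of 1.37.

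Ces2a, of the carboxylesterase group that splits many prodrugs, rose with no overlap between groups. Its lysate CPM was 82.4, 118.5 and 167.6 at the lowest, median and highest, and its WAM CPM 269.7, 325.7 and 479.9, a log2 fold change of 1.49 (SE 0.18, edgeR adjusted p = 6.93e-06).

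Among the members without a full retrieval signal, Ces1c, the plasma carboxylesterase, had the highest counts. Its CPM was 746.9, 978.4 and 1130 in lysates and 1482, 2656 and 3446 in WAM at the lowest, median and highest. The log2 fold change was 1.37 (SE 0.19, edgeR adjusted p = 2.97e-05), and the groups did not overlap. Ces1b, its neighbour on the chromosome and its nearest relative by shared words, had CPM of 27.1, 30.3 and 42.5 in lysates and 69.7, 80.8 and 105.9 in WAM. Its log2 fold change was 1.42 (SE 0.14, edgeR adjusted p = 1.06e-06), also without overlap.

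Ces3a, second in abundance, and Ces3b, its close copy, had near equal changes. Ces3a went from lysate CPM of 646.9, 878.8 and 1093 to WAM CPM of 1902, 2326 and 3374, a log2 fold change of 1.46 (SE 0.17, edgeR adjusted p = 4.62e-06). Ces3b went from 128.6, 144.1 and 240.0 to 339.0, 467.7 and 559.1 CPM, a log2 fold change of 1.44 (SE 0.19, edgeR adjusted p = 1.88e-05). Since these genes share so many words, the 2 values are not independent.

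Aadac, the membrane-anchored deacetylase that splits drugs and acylglycerols, had the lowest change of the 10. Its CPM was 132.1, 185.6 and 266.1 in lysates and 313.1, 463.0 and 708.2 in WAM at the lowest, median and highest. The groups did not overlap, and the log2 fold change was 1.29 (SE 0.21, edgeR adjusted p = 0.000135). In all, 9 of the 10 members had every WAM CPM above every lysate CPM, as did 20.3% of all tested genes.

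The members' changes were close to each other. Log2 fold changes ran from 1.29 to 1.50, with an SD over the 10 genes of 0.062, against an SD of 0.706 over all tested genes, whose 10th and 90th percentiles were -0.60 and 1.27. Among the carboxylesterase members, the 5 with the retrieval codons lay between 1.43 and 1.50 and those without between 1.37 and 1.46. Tested carboxylesterases outside the members did not keep this order. Ces2e, Ces2c and Ces2g have the codons and had 1.53, 1.35 and 1.34, and Ces4a, without them, had 1.02, with Ces2c and Ces4a not called. A link between the signal and the change was not tested. The range of the 10 held 680 of the 11181 tested genes, 6.08%, so that this size of change was not particular to them.

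**Figure D2:**
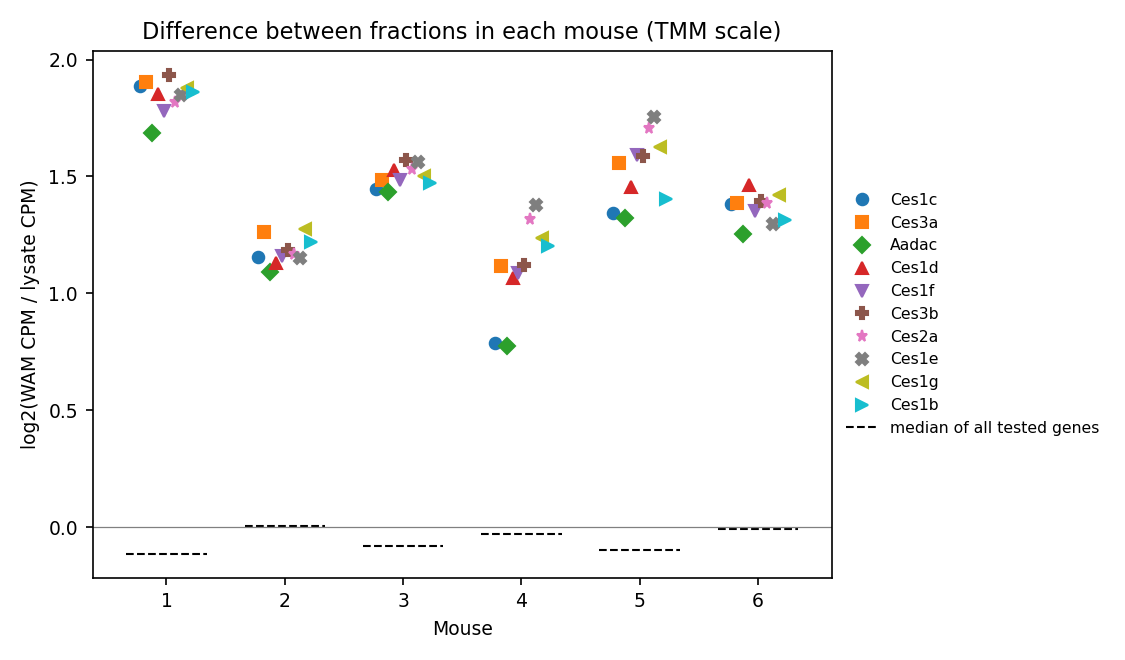
Difference between the fractions of each mouse, as log2 of WAM CPM over lysate CPM on the TMM scale, for the 10 genes, with a dashed line at the median of all tested genes. The genes lie together within a mouse and shift from mouse to mouse, from a median of 1.86 in mouse 1 to 1.12 in mouse 4, where Ces1c and Aadac lie lowest.

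Mice differed more than genes did, as the plot of differences by mouse shows. The median of the 10 genes, as log2 of WAM over lysate CPM, was 1.86 in mouse 1, 1.17 in mouse 2, 1.49 in mouse 3, 1.12 in mouse 4, 1.57 in mouse 5 and 1.39 in mouse 6, an SD of 0.274 over mice. Within a mouse the SD over the 10 genes was 0.046 to 0.199. All 10 genes had their highest value in mouse 1, and 8 had their lowest in mouse 4 and the other 2, Ces1e and Ces2a, in mouse 2.

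Mouse 4 also spread the members furthest apart. There Ces1c stood at 0.79 and Aadac at 0.77, below the 1.38 of Ces1e and the 1.32 of Ces2a. The list of 11 other hydrolases of the secretory pathway had medians of 1.65 in mouse 1 and 1.23 in mouse 4, with its lowest median, 0.99, in mouse 2. Without both libraries of mouse 4, all 10 members were still called higher, Ces1c at 1.46 and Aadac at 1.37 (edgeR adjusted p = 3.76e-05 and 0.000341).

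The level of the members also varied between mice within a fraction. Mouse 5 had the lowest lysate level for 8 of the 10 genes, in CPM as in TPM. In WAM it was lowest for 8 in TPM, but for 4 in CPM, with mouse 4 lowest for 4 others. For Ces1g the lysates of mice 4, 5 and 6 lay apart from those of mice 1, 2 and 3, at CPM of 43.5, 33.8 and 40.2 against 75.3, 121.5 and 84.99. The WAM libraries split in the same way, at 102.7, 104.6 and 108.0 against 277.5, 294.1 and 240.9. This split was not particular to Ces1g. Ces1f showed it in both fractions, with lysate CPM of 107.3, 87.0 and 144.9 against 171.1, 219.1 and 173.0. Aadac did too, though narrowly in lysates, where mouse 4 had 183.0 and mouse 3 had 188.1. Ces1e, Ces2a and Ces3a split this way in WAM only. Mouse 5 is the mouse with the high immune markers given above, and the part of these cells in its values was not tested. In the lysate of mouse 5, Alb, Ttr and Tat of the 10 hepatocyte markers were the lowest of the 6 lysates in TPM, while Cyp2e1, Apoa1, Cps1 and Hnf4a were the highest or next to it, as was Asgr1. In bulk samples a smaller share of a cell type and less of an mRNA per cell cannot be told apart for a single gene. Without both libraries of mouse 5, all 10 members were called higher (edgeR), with log2 fold changes from 1.28 for Aadac to 1.49 for Ces1g.

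A ratio of 2 genes within a library does not depend on how libraries are scaled, so the members were also compared with each other as ratios of TPM. Ces1c and Ces3a together held 64.5% ± 2.3 (SD, n = 6) of the members' summed TPM in lysates and 64.2% ± 1.5 in WAM. Aadac held 10.3% ± 0.8 in lysates and 9.30% ± 0.93 in WAM, lower in WAM in 6 of 6 mice. Ces1d held 6.35% ± 0.52 and 7.27% ± 0.84, higher in WAM in 6 of 6 mice. On counts Ces1d did not stand out, with a log2 fold change of 1.43, below the 1.49 of Ces1e. In TPM the log2 ratio of Ces1d to Ces1e was higher in WAM by 0.14, in 6 of 6 mice. Such ratios therefore depended on whether counts or TPM were used.

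**Figure D3:**
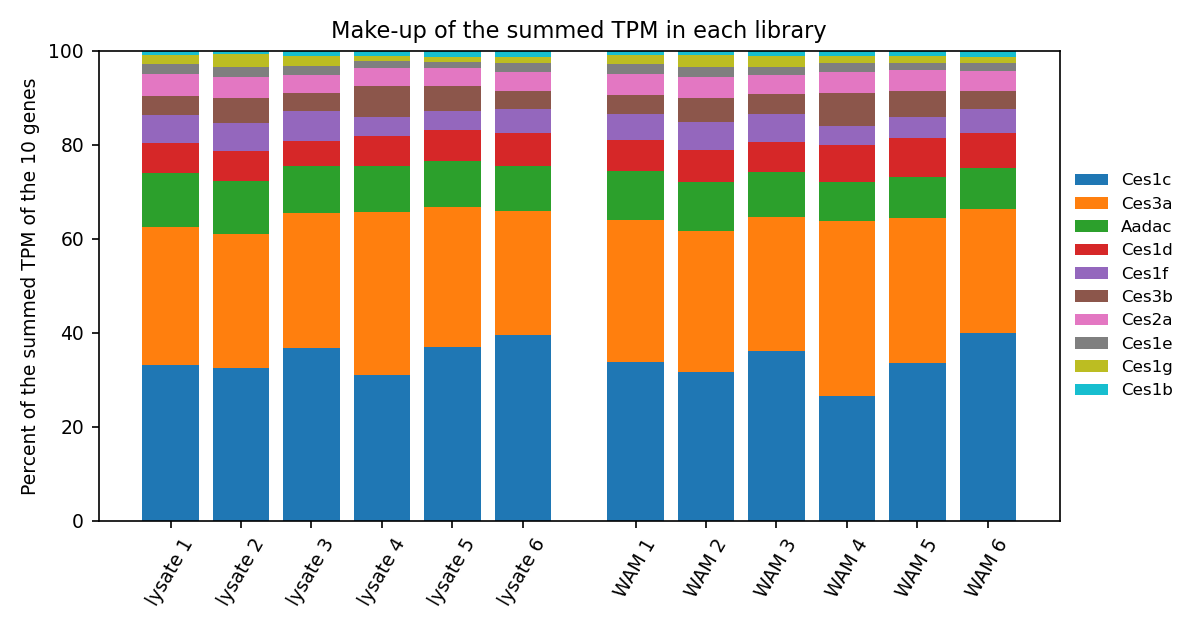
Share of each gene in the summed TPM of the 10 genes, in percent, stacked to 100 for each of the 6 lysate and 6 WAM libraries. Ces1c and Ces3a hold most of the sum in every library, and the WAM library of mouse 4 has the smallest Ces1c share, 26.5%.

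The 45 pairs of members were tested by exact permutation, two-sided, with every one of the 924 ways to assign 12 libraries, where the smallest possible p is 0.00217. The ratio of no pair passed after Benjamini-Hochberg adjustment over the 45 pairs, the smallest adjusted p being 0.39, and 2 pairs had an unadjusted p under 0.05. These were Ces2a to Aadac, whose log2 ratio was -1.34 ± 0.09 (SD, n = 6) in lysates and -1.09 ± 0.18 in WAM, a difference of 0.26 (exact permutation p = 0.00866, adjusted p = 0.39), and Ces1d to Aadac, with a difference of 0.35 (exact permutation p = 0.0411, adjusted p = 0.925). The first ranged from 0.10 to 0.61 over mice and the second from 0.19 to 0.62, both above 0 in 6 of 6 mice. On counts these genes lay closer for Ces1d and Aadac, with log2 fold changes of 1.49 for Ces2a, 1.43 for Ces1d and 1.29 for Aadac.

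Median and largest sizes of the difference over the 45 pairs were 0.09 and 0.35 on the log2 scale. With labels exchanged within mice, 19 of 45 pairs had an unadjusted exact permutation p of 0.03125, the smallest that the 64 assignments allow, each with the same sign in 6 of 6 mice. None passed after adjustment (exact permutation, smallest adjusted p = 0.074), which would have taken 29 pairs at that p. Over all assignments, a lone pair at the smallest p would have an adjusted p of 0.0974. These tests therefore do not show that the ratios were unchanged.

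**Figure D4:**
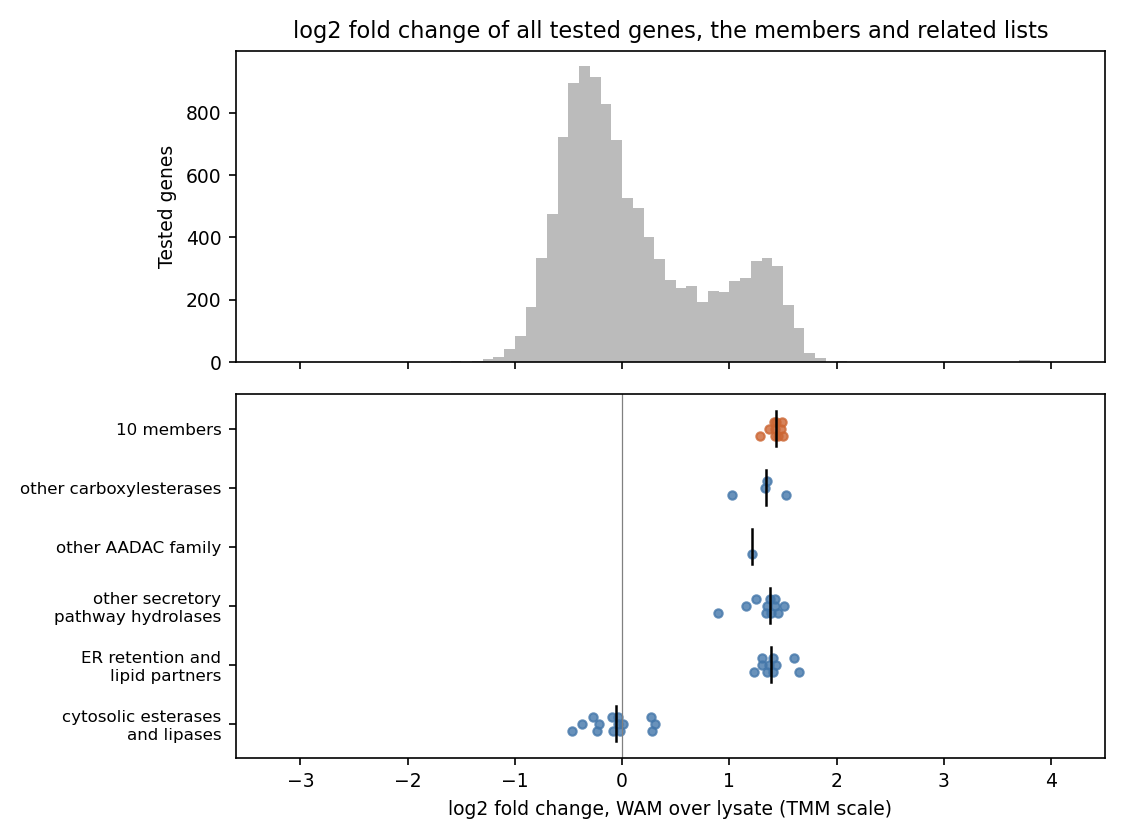
Log2 fold change of WAM over lysate on the TMM scale for all 11181 tested genes (top, number of genes per bin of 0.1) and for the members and 5 related lists (bottom, 1 point per tested gene, black line at the median). The 10 members lie between 1.29 and 1.50, within the smaller peak on the right of all genes, and the cytosolic esterases and lipases lie around 0.

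Related genes are set beside the members in the plot of log2 fold changes by list. Of the 10 other carboxylesterases, 4 passed the filter on low counts, and Ces2e and Ces2g of these were called higher. Ces2e, at 59.4 ± 16.6 TPM in lysates (SD, n = 6), had a log2 fold change of 1.53 (SE 0.26, edgeR adjusted p = 0.000186). Ces2c, known as a triacylglycerol and diacylglycerol hydrolase, had 18.3 ± 14.3 TPM and a log2 difference of 1.35 (SE 0.65, edgeR adjusted p = 0.0901), positive in 6 of 6 mice. With the mouse as a block in the model, Ces2c was called higher at 1.33 (SE 0.12, edgeR adjusted p = 1.53e-08), and so was Ces4a, so that all 4 passed. Those below the filter were at most 0.319 TPM on average in lysates, with Ces1h and Ces5a listed at 0. In the arylacetamide deacetylase family, Nceh1, a neutral cholesterol ester hydrolase of the ER membrane, was the 1 tested gene and had a log2 fold change of 1.21 (SE 0.23, edgeR adjusted p = 0.000406).

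Other hydrolases of the secretory pathway were called higher in 11 of 11 cases, with a median of 1.38. Of all tested genes 29.5% were called higher, and this list and the next were chosen with earlier results of these data known. Pon1, the paraoxonase carried by high density lipoprotein, reached 1.43 (SE 0.16, edgeR adjusted p = 4.11e-06) and Lcat, which esterifies plasma cholesterol, 1.38 (SE 0.12, edgeR adjusted p = 4.73e-07). Faah, a fatty acid amide hydrolase of the ER membrane, had the largest change of this list at 1.51. Partners in ER retention and lipid handling were called higher in 10 of 10 tested cases, with a median of 1.39. Apob, the structural protein of very low density lipoprotein, stood at 1.35 and P4hb, an ER-retained disulfide isomerase, at 1.65.

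Cytosolic esterases, thioesterases and lipases differed from these lists. Of 14 tested, 1 was called higher, Ppme1, and 2 lower, Acot12 and Lipe, with a median of -0.06. Of all tested genes, 29.5% were called higher and 28.8% lower. Lipe, the hormone-sensitive lipase, fell by 0.47 on the log2 scale (SE 0.17, edgeR adjusted p = 0.0319). Esd, which splits S-formylglutathione, had a log2 difference of -0.23 (SE 0.12, edgeR adjusted p = 0.115), and Acot1, an acyl-CoA thioesterase, 0.28 (SE 0.63, edgeR adjusted p = 0.719). With the mouse as a block, 8 of the 14 were called, among them Esd at -0.24 and Acot1 at 0.23 (edgeR adjusted p = 0.00576 and 0.0146).

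The signs of these lists depended on scaling. The members lay above the cytosolic list on every scale given here. A scaling factor moves all genes of a library alike, so finding this order again on a further scale adds no evidence. Only the use of TPM in place of counts, and the constant added to TPM, could alter the gap. Scaled to library totals, the list medians were 0.33 for the members, 0.26 for the other secretory pathway hydrolases and -1.17 for the cytosolic list, of which 13 were called lower. On the authors' coefficient scale these medians were -2.27, -2.34 and -3.46, and with TPM as deposited -0.10, -0.16 and -1.58. The size of the gap was a description and was not tested.

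The genes whose differences by mouse were most like the members' median were Ephx1, Pdia3, Kng1, Itih1 and Ahsg. They came out of 6115 tested genes with at least 10 TPM in lysates, with the members and genes of Gm or Rik names left out. Likeness was the root mean square, over the 6 mice, of the gap between a gene's log2 WAM over lysate CPM and the members' median. It was 0.027 for Ephx1, the microsomal epoxide hydrolase, 0.051 for Pdia3, a disulfide isomerase of the ER lumen, 0.052 for both Kng1 and Itih1 and 0.053 for Ahsg, against a median of 1.50 over the 6115 genes. Kng1, Itih1 and Ahsg encode kininogen, an inter-alpha-trypsin inhibitor chain and fetuin-A, which are secreted into plasma. Among the members, whose own values set that median, the same measure ran from 0.037 for Ces1f to 0.198 for Aadac.

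In the authors' deposited table of enrichment, which lists 1160 genes, 6 of the 10 members were present, and the values are WAM over lysate in percent after division by the mitochondrial coefficient. In the authors' deposited table Ces1d had 23.2%, Ces2a 21.7%, Ces3a 21.5%, Ces1c 20.3%, Ces1f 20.2% and Aadac 18.9%, and the median was 15.4% over all listed genes and 20.2% over the 270 listed genes with an ER mark. The authors' deposited table of 205 genes with at least 20% enrichment and at least 25 TPM, thresholds taken from its header, held 5 of these, without Aadac. The authors' deposited table marked Ces1c, Ces1d, Ces1f, Ces3a and Aadac as ER and Ces2a as extracellular space.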

How the data were processed

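Poly(A) RNA of 6 lysate and 6 WAM libraries was analysed. The authors deposited estimated counts per gene, not normalised, and TPM, a length-scaled abundance, per the file headers. Their enrichment, a ratio in percent, is the authors' mean over mice of coefficient-divided WAM TPM over lysate TPM, per the file headers. Tools listed, without roles, in the submitters' processing notes are R 3.5.0, DESeq2 1.20.0, kallisto 0.44.0 and fastp 0.12.4. Neither a genome build nor an annotation is given in the sources used here. A further 60 per-sample columns were not used.

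Keeping 1 of the 48042 lines per gene left 35498 genes, and counts, of which 32.5% of the non-zero ones were not whole, were rounded. Genes were tested with edgeR 4.0.16 (quasi-likelihood, TMM, filterByExpr, R 4.3.3), Benjamini-Hochberg over 11181 tested genes, called at adjusted p under 0.05. On simulated counts with 200 genes changed, the test recovered 35.8% of 1.5-fold, 91% of 2-fold and 98.5% of 4-fold changes, with 12 false calls. With so few genes changed, the simulation does not test the choice of scaling. Each SE belongs to a log2 fold change. Alternatives used limma 3.58.1 and DESeq2. Ratios between members used TPM plus 0.1 and an exact permutation test. The members and lists were chosen with earlier results of these data known.

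Named besides the members are, from each list, the 2 tested genes of highest mean lysate TPM and the called gene of largest change, and the 5 genes most like the members. Gusb, Ces2g, Ces4a, Acot12, Ppme1, Ces1h and Ces5a were added after their values were seen. Replicate numbers mark the same mouse: deviations from the group mean gave r of 0.45 to 0.77 between fractions of a mouse and at most 0.40 between mice. P-values rest on the spread among libraries within a fraction.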

Additional observations from a re-analysis of the deposited data

Results flagged for a closer look

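Ces1b had 49.95 TPM in the lysate of mouse 6, above the other lysates, by a gap that was large for the range of the 6 lysates. The gap passed Dixon's critical value at 95%, which chance does in about 1 group in 20, and 20 groups of gene TPM and 8 of summed shares were looked at. The cause was not tested.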

How the results depend on the processing

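All 10 members were called higher when 1 library, or both libraries of mouse 4 or 5 (an alternative chosen after seeing the data), were left out, with log2 fold changes from 1.12 to 1.76 over 140 values. They were also called with DESeq2 size factors, DESeq2's test, no filter on low counts, at least 5 TPM in lysates, the replicate block (10 called, 1.26 to 1.50; 7791 genes called in all) and median-centred limma on TPM plus 0.1, 1 or 5. The number of members called higher fell to 0 with library totals, with limma on TPM as deposited and with the authors' coefficient, under which 11117 genes were called. With the authors' coefficient the log2 differences were -2.19 (Ces1b), -2.44 (Ces1c), -2.17 (Ces1d), -2.22 (Ces1e), -2.37 (Ces1f), -2.16 (Ces1g), -2.24 (Ces2a), -2.33 (Ces3a), -2.30 (Ces3b) and -2.52 (Aadac). With TPM as deposited they were -0.12 (Ces1b), -0.21 (Ces1c), -0.10 (Ces1e), -0.17 (Ces1f), -0.048 (Ces1g), -0.046 (Ces2a), -0.10 (Ces3a), -0.10 (Ces3b) and -0.30 (Aadac), and 0.05 for Ces1d, none called. These scales move the median of all genes, by -1.11 with library totals, -1.14 with TPM as deposited and -2.45 with the coefficient. The log2 differences did not all move by the same amount. A coefficient moves all genes of a library alike, but 1 was added to TPM after the division, which shrinks differences at low TPM. The parts of this constant and of the change from counts to TPM in these shifts were not separated. With the coefficient, the median of the members went from 1.43 to -2.27 and that of the cytosolic list from -0.06 to -3.46. Of the ratios between members, 0 were called under counts, TPM plus 1, the replicate block and without any 1 mouse, but passing would have taken 29 pairs at the smallest p under the block and 8 without a mouse, so these counts say nothing about stability. Cytosolic esterases were called in 3 of 14 cases, 1 without lysate library 2, and other carboxylesterases in 2 of 4, with 4 under the block.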
